A study of Mus musculus with 30 samples.

Results

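The collagen genes of the mouse, taken as every gene symbol of the expression table that consists of Col, a number, a and a number, came to 44 of 55291 symbols. They were split by the usual families into 8 fibrillar, 9 basement membrane, 7 cartilage and 20 other members. The table gives levels in TPM, which scale reads by transcript length and by library, for 30 libraries from 10 subcutaneous mouse tumour lines with 3 libraries each. MC38 is a colon carcinoma, MC38OVA its derivative named for the antigen ovalbumin, EMT6 a mammary carcinoma, LL2 the Lewis lung carcinoma, CT26 a colon carcinoma, CT26NYESO1 its derivative named for the antigen NY-ESO-1, CMS5a a fibrosarcoma, Renca a renal carcinoma, and B16F1 and B16F10 are melanoma lines. The labels name BALB/cJ and C57BL/6J host mice and injection of OK-432, a killed streptococcal preparation, into the tumours for 24 hours or no such treatment, without tying either to a library. Tumours were taken at 10 mm in length, minced and digested with an enzyme mix, and total RNA came from the cell suspension with TRIzol. All 10 groups share this protocol, and the labels give no number of mice per library. The series' design text names the search for cancer types suited to OK-432, and the comparison these files allow is that between the 10 lines. Where nothing says that the 3 libraries of a line came from separate mice, p-values measure the spread between these libraries, which may be technical.

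Collagens are secreted proteins whose alpha chains wind in groups of 3 into a helix. Fibrillar collagens (types I, III and V) bundle into the fibres of connective tissue, type IV collagens form the sheet under epithelium and around vessels, types II, IX, X and XI belong to cartilage, and type VI forms fine beaded filaments beside cells. In tumours the main producers of fibrillar collagen are fibroblasts, while type IV chains come from endothelium, pericytes and carcinoma cells as well. Leukocytes make little of either.

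The sample labels name CD45-positive tumour-infiltrating immune cells, and CD45 is the product of Ptprc. Ptprc was present in all lines, from 5.39 ± 2.83 TPM in B16F10 to 154 ± 64.04 TPM in MC38OVA (SD, n = 3). The sum of 10 leukocyte markers, Ptprc among them, had another lowest line. It was 298.9 TPM in B16F1, 559.6 TPM in B16F10 and, at its highest, 1946 TPM in MC38OVA. Transcripts of other cell types were abundant beside these markers. The summed level of 6 melanocyte markers was 1429 to 6741 TPM in the B16F1 libraries and 8950 to 12934 TPM in those of B16F10. Epithelial markers summed to 1329 to 2029 TPM in Renca and 623.4 to 715.4 TPM in EMT6, led by the keratin Krt8 at 926 ± 219.5 and 609.7 ± 36.9 TPM. All 12 fibroblast markers were above 0.1 TPM in at least 1 library of every line, and their sum ran from 64.3 TPM in B16F10 to 1587 TPM in LL2. The collagen levels are levels in a mixed suspension, in which fewer cells of a type and less RNA per cell cannot be told apart. Mitochondrially encoded transcripts took 9.17% to 39% of a library's TPM, most in replicate 2 of B16F1.

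Of the 44 collagen genes, 34 reached 1 TPM in at least 3 libraries and were tested: 7 of 8 fibrillar, 8 of 9 basement membrane, all 7 cartilage and 12 of 20 other members. 6 members were at or above 1 TPM in all 30 libraries: Col1a1, Col1a2, Col4a1, Col4a2, Col5a3 and Col16a1. 13 members reached it in all 3 libraries of each line other than B16F10. At the other end, 18 members had at most 1 line with all 3 libraries at 1 TPM. Of the tested members, 4 reached 1 TPM in 1 line only, Col2a1, Col9a1 and Col9a2 in B16F1 and Col13a1 in Renca. Col4a4, Col8a2, Col20a1 and Col23a1 reached it in 4 or 5 libraries. Each would also have failed the filter without its highest line, B16F10, Renca, B16F1 and LL2 in that order. The 10 members that were not tested never reached 1 TPM in more than 1 library. Their highest single levels were 1.35 TPM for Col26a1 in MC38OVA, 1.18 TPM for Col24a1 in LL2, 0.976 TPM for Col6a5 in CMS5a, 0.564 TPM for Col6a6 and 0.522 TPM for Col4a3 in Renca, 0.485 TPM for Col6a4 in EMT6, 0.474 TPM for Col17a1 in MC38OVA, 0.298 TPM for Col22a1 in CMS5a, 0.134 TPM for Col25a1 in B16F10 and 0.0291 TPM for Col19a1 in CT26. Depth is unknown for TPM values, so the counting error of these low levels cannot be given. Over all 10 lines, each of the 34 tested members differed between lines (limma F test with Benjamini-Hochberg adjustment, adjusted p under 0.05 and line means at least 1 log2 unit apart), as did 85.5% of the 17944 genes tested. The median spread between the highest and lowest line was 5.33 log2 units for the tested members and 1.71 for all genes, on the log2(TPM + 1) scale used for each fold change here. Both the count and the spread include the members named above that passed the filter only through their highest line. For those the filter favoured a difference between lines, so nothing is read from their part in either.

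**Figure D1:**
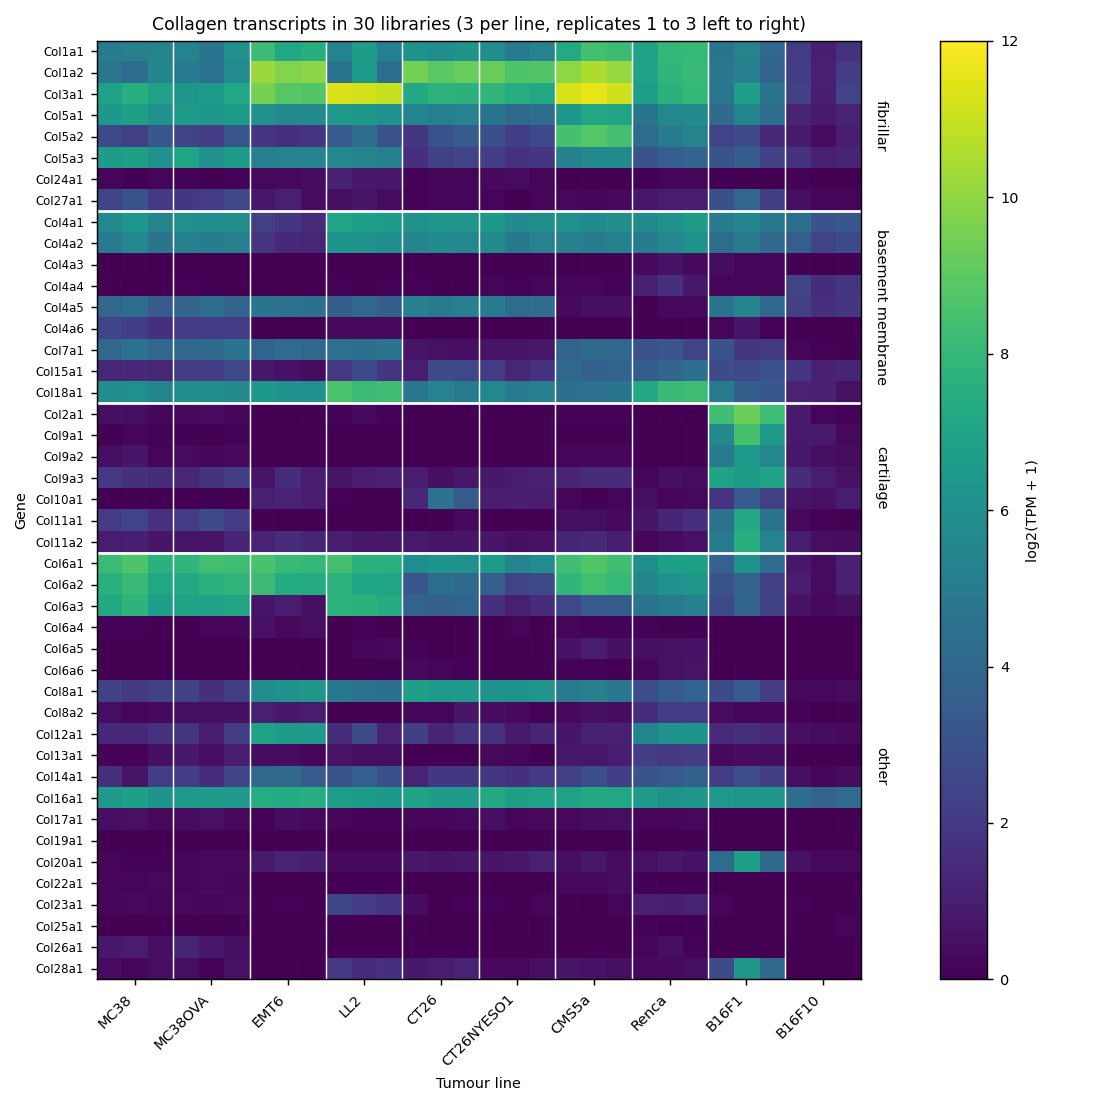
Levels of the 44 collagen genes (rows, by family) in the 30 libraries (columns, 3 per line) as log2(TPM + 1), from dark (0) to yellow (12). Col1a2 and Col3a1 are brightest in a few lines, the cartilage rows are bright in B16F1, and most rows are dark in B16F10.

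The summed level of all collagens spanned from 62.6 ± 23.04 TPM in B16F10 to 5555 ± 886 TPM in CMS5a. The next highest sum was that of LL2, at 3837 ± 591 TPM, followed by EMT6 at 2848 ± 557 TPM. The means of the other 6 lines lay between 1183 TPM in CT26NYESO1 and 1439 TPM in Renca, so these means were close while the makeup of the lines was not. Single libraries spread more widely, with 954.2, 2284 and 928.9 TPM in B16F1 and 924.5, 1582 and 1810 TPM in Renca. Fibrillar members made up 82.6% of the collagen TPM in CMS5a, 66.5% in LL2, 65.2% in EMT6, 64.4% in CT26 and 62.3% in CT26NYESO1. In MC38 and MC38OVA the members outside the 3 named families, chiefly type VI, were the larger share at 56.9% and 54.8%. Renca had 48.2% fibrillar, 26.9% basement membrane and 24.8% other. In B16F1, cartilage members made up 65.1% of the sum, against 6.16% in B16F10 and at most 0.878% in the other 8 lines.

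Type I collagen is built from Col1a1 and Col1a2 chains and is the main protein of connective tissue fibres. Col1a1 was highest in CMS5a with 161, 339 and 292 TPM in replicates 1 to 3, in EMT6 with 301, 145 and 188 TPM and in Renca with 118, 253 and 261 TPM. CT26 held 68.8, 60.1 and 73.3 TPM, LL2 39.8, 97.5 and 35.8 TPM, CT26NYESO1 57.6, 29.2 and 38.7 TPM and MC38OVA 39.8, 24.2 and 65.5 TPM. MC38 held 29.5, 36.1 and 42.1 TPM, B16F1 23.9, 39.8 and 15.03 TPM and B16F10 3.21, 1.01 and 2.37 TPM. The 3 highest lines overlapped with one another, and no library of B16F10 reached a library of another line. Against the mean of the other 9 lines, Col1a1 in Renca was higher by 2.12 ± 0.31 (SE, adjusted p = 1.8e-06).

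The partner chain Col1a2 followed another order. Its highest lines were CMS5a (1006, 1471 and 1142 TPM), EMT6 (1166, 866 and 961 TPM), CT26 (722, 491 and 590 TPM) and CT26NYESO1 (614, 415 and 427 TPM). Renca was intermediate with 119, 235 and 273 TPM. The remaining lines were lower, with 24.4, 87.2 and 18.9 TPM in LL2, 31.3, 22.8 and 54.6 TPM in MC38OVA, 25.7, 17.98 and 42.4 TPM in MC38, 25.8, 36.2 and 13.3 TPM in B16F1 and 3.49, 1.11 and 3.38 TPM in B16F10. The 4 highest lines did not overlap with the other 6. Col1a2 was higher by 3.87 ± 0.33 (SE, adjusted p = 2.1e-10) in CMS5a, by 3.57 ± 0.33 (SE, adjusted p = 9.7e-10) in EMT6, by 2.75 ± 0.33 (SE, adjusted p = 1.3e-07) in CT26 and by 2.4 ± 0.33 (SE, adjusted p = 1.3e-06) in CT26NYESO1. It fell against the other lines, at -2.15 ± 0.33 (SE, adjusted p = 7.4e-06) in MC38, at -1.79 ± 0.33 (SE, adjusted p = 7.5e-05) in MC38OVA and at -1.77 ± 0.33 (SE, adjusted p = 8.5e-05) in LL2.

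Col3a1 encodes type III collagen, which mixes with type I in soft tissue. Its libraries held 2459, 3005 and 2233 TPM in CMS5a and 2667, 2316 and 1968 TPM in LL2, which overlapped, and 739.8, 474 and 444 TPM in EMT6. The next lines held 106, 211 and 257 TPM in Renca, 148, 217 and 208 TPM in CT26, 229, 171 and 147 TPM in CT26NYESO1, 115, 186 and 114 TPM in MC38 and 76.5, 90.9 and 146 TPM in MC38OVA. These 5 lines each overlapped with the next in order, down to B16F1. B16F1 held 25.4, 104 and 24.5 TPM and B16F10 3.83, 0.983 and 4.5 TPM. Col3a1 was higher by 4.22 ± 0.32 (SE, adjusted p = 1.4e-11) in CMS5a and by 4.06 ± 0.32 (SE, adjusted p = 4.2e-11) in LL2. The sum of the 12 fibroblast markers was highest in these lines too, 1343 to 1596 TPM in CMS5a and 1452 to 1767 TPM in LL2, and its part in the result was not tested.

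Type V collagen, which starts and limits fibre growth, is made of Col5a1, Col5a2 and Col5a3 chains. Col5a1 was at 10 TPM or more in every library outside B16F10. CMS5a held 78.7, 144 and 126 TPM, MC38OVA 96.1, 80.5 and 93.4 TPM, MC38 83.8, 111 and 66.1 TPM and LL2 87.1, 79.9 and 66.2 TPM. EMT6 held 63.98, 49.02 and 51.4 TPM, Renca 24.5, 47.2 and 49.99 TPM, CT26 42.2, 35.1 and 39.3 TPM and B16F1 16.8, 44.4 and 19.1 TPM. CT26NYESO1 held 24.8, 16.6 and 17.7 TPM and B16F10 1.23, 0.8101 and 1.24 TPM. Col5a2 was instead concentrated in CMS5a, with 358, 461 and 353 TPM, against 18.2, 29.2 and 40.6 TPM in Renca and at most 19.5 TPM in any library of the other 8 lines. Its rise in CMS5a of 5.94 ± 0.30 (SE, adjusted p = 2.4e-15) was the largest there. Col5a3 led in the MC38 lines, with 96.95, 112 and 65.5 TPM in MC38 and 138, 63.3 and 97.99 TPM in MC38OVA. It was higher by 2.62 ± 0.22 (SE, adjusted p = 2.3e-10) and 2.72 ± 0.22 (SE, adjusted p = 1.2e-10) there, and lower in both CT26 lines, at -2.22 ± 0.22 (SE, adjusted p = 4.3e-09) in CT26 and -2.41 ± 0.22 (SE, adjusted p = 1.2e-09) in CT26NYESO1. Col27a1, a minor fibrillar collagen, reached its highest line mean in B16F1 at 8.38 ± 5.78 TPM.

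**Figure D2:**
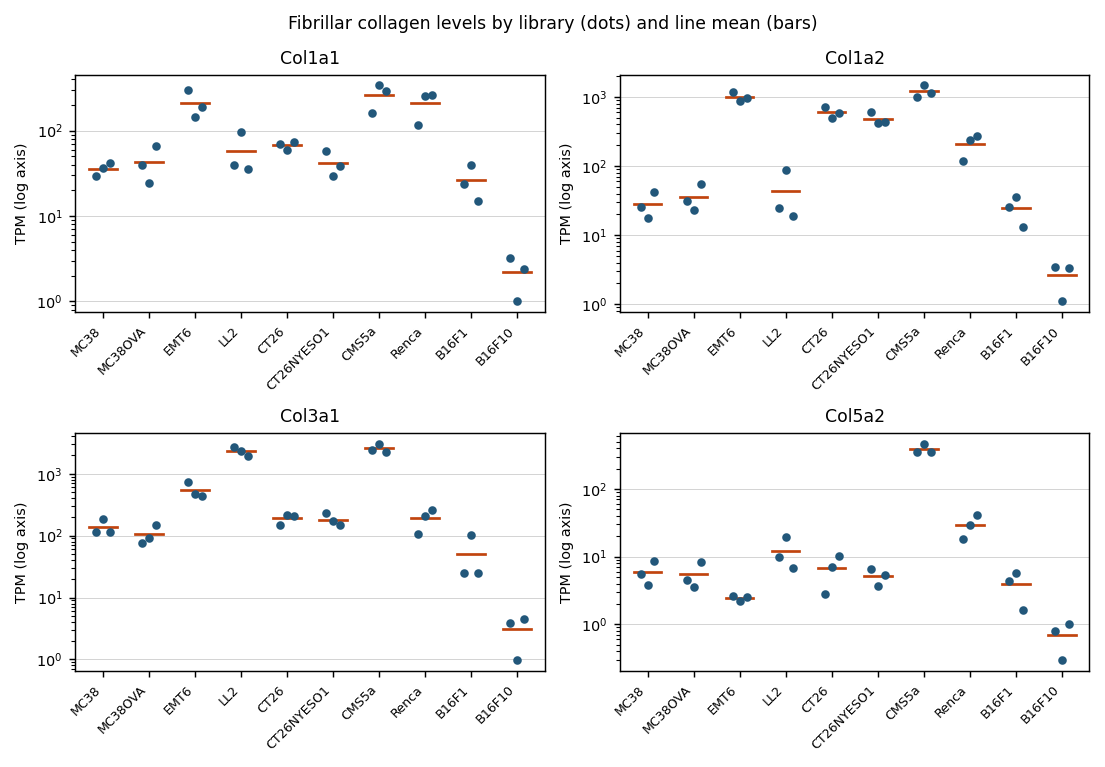
Levels of Col1a1, Col1a2, Col3a1 and Col5a2 in TPM (vertical log axis) by line, with 1 dot per library in the order of replicates 1 to 3 and a bar at the line mean. Col1a2 is high in 4 lines, Col3a1 in CMS5a and LL2, and Col5a2 in CMS5a, where its libraries lie between 353 and 461 TPM.

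Type IV collagen is the scaffold of basement membranes, and its common form uses Col4a1 and Col4a2 chains. Col4a1 was high in LL2 (129, 109 and 95.4 TPM), followed by CT26 (65.95, 77.9 and 76.2 TPM), Renca (51.04, 65.9 and 97.3 TPM) and CT26NYESO1 (84.5, 50.5 and 62.1 TPM). MC38OVA held 63.9, 56.2 and 59.96 TPM, CMS5a 64.5, 50.8 and 60.2 TPM, MC38 52.4, 79.3 and 42.3 TPM and B16F1 32.8, 43.5 and 26.9 TPM. The lowest lines were B16F10 with 19.3, 7.52 and 8.47 TPM and EMT6 with 3.79, 2.82 and 1.79 TPM. From CT26 down to B16F1 each line overlapped with the next, and B16F10 and EMT6 stood apart from their neighbours. LL2 was above CT26 in all libraries and overlapped with Renca through replicate 3 of each. EMT6 was thus the only line with less Col4a1 than B16F10, although its fibrillar sum was among the 3 highest. Col4a1 fell in EMT6, at -3.83 ± 0.21 (SE, adjusted p = 3.1e-14), and so did Col4a2, at -3.54 ± 0.22 (SE, adjusted p = 4e-13). The 9 endothelial markers summed to 16.2 to 23.7 TPM in EMT6, 17.8 to 20.4 TPM in CT26NYESO1 and 14.8 to 34.6 TPM in CT26. B16F10 was lowest by the mean, with 11.7 to 15.9 TPM, and B16F1 held 22.1 to 35.03 TPM. The sum was 57.7 to 58.5 TPM in MC38, 71.5 to 93.7 TPM in MC38OVA and 47.8 to 71.2 TPM in LL2. It was highest in CMS5a (173.8 to 218.2 TPM) and Renca (169.5 to 255.1 TPM). The part of these markers in the result was not tested.

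Col4a2 moved with Col4a1 in each line. Its libraries held 72.9, 68.5 and 57.8 TPM in LL2, 30.2, 47.2 and 68.9 TPM in Renca, 42.4, 50.3 and 47.8 TPM in CT26 and 51.8, 28.2 and 38.4 TPM in CT26NYESO1. In CMS5a they held 37.98, 32.6 and 38.2 TPM, in MC38OVA 37.6, 32.8 and 36.2 TPM, in MC38 30.5, 46.9 and 23.3 TPM and in B16F1 18.1, 29.1 and 15.5 TPM. B16F10 held 11.3, 4.59 and 5.41 TPM and EMT6 2.66, 1.53 and 1.41 TPM.

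Col4a5 and Col4a6, X-linked chains of specialised basement membranes, and Col4a4, a chain known from kidney, behaved one by one. Col4a5 was present in 8 lines, with 36.4, 30.6 and 36.6 TPM in CT26, 23.9, 42.96 and 16.1 TPM in B16F1, 28.9, 17.7 and 18.5 TPM in CT26NYESO1 and 23.9, 20.99 and 19.7 TPM in EMT6. MC38OVA held 13.1, 19.5 and 13.3 TPM, MC38 14.7, 18.1 and 10.03 TPM, LL2 10.6, 15.1 and 10.7 TPM and B16F10 3.897, 2.17 and 2.73 TPM. It stayed under 1 TPM in CMS5a (0.223, 0.409 and 0.4296 TPM) and Renca (0.0327, 0.199 and 0.221 TPM), where it was lower, at -3.19 ± 0.20 (SE, adjusted p = 3.2e-13) and -3.45 ± 0.20 (SE, adjusted p = 2.8e-14). In CT26 it was higher by 2.05 ± 0.20 (SE, adjusted p = 2.7e-09). Col4a6 reached 1 TPM in MC38 (4.28, 3.64 and 2.07 TPM) and MC38OVA (3.48, 3.59 and 3.19 TPM) alone. Col4a4 reached it in all 3 libraries of B16F10 (4.48, 1.98 and 2.45 TPM) and in 2 of 3 of Renca (1.099, 2.22 and 0.698 TPM). It was the sole collagen called higher in B16F10 than in the other lines, by 1.72 ± 0.13 (SE). Without the B16F10 libraries it would not have passed the filter, which favoured that direction, so no p-value is given.

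Col18a1, the source of the fragment endostatin, had the highest mean of the basement membrane members. LL2 held 389.6, 292 and 314 TPM and Renca 151, 277 and 304 TPM, which overlapped. The next lines were EMT6 (82.4, 67.3 and 64.2 TPM), MC38OVA (57.4, 60.3 and 48.9 TPM), MC38 (57.5, 65.1 and 41.02 TPM), CT26NYESO1 (46.8, 28.9 and 35.3 TPM) and CT26 (24.8, 38.7 and 30.2 TPM). CMS5a held 20.2, 21.2 and 24.3 TPM, B16F1 30.3, 10.5 and 8.48 TPM and B16F10 1.204, 1.17 and 0.472 TPM. Col18a1 was higher by 3.35 ± 0.23 (SE, adjusted p = 4.6e-12) in LL2 and by 2.8 ± 0.23 (SE, adjusted p = 7e-11) in Renca. CMS5a, with the most fibrillar collagen, thus had less Col18a1 than each line other than the B16 lines. The related Col15a1 was highest in Renca (10.8, 14.01 and 19.7 TPM) and CMS5a (15.3, 12 and 14.2 TPM). It rose in Renca by 1.91 ± 0.25 (SE, adjusted p = 3.1e-07) and fell in EMT6, at -1.82 ± 0.25 (SE, adjusted p = 1e-06). Col7a1, the anchoring fibril collagen of skin, was at or below 0.699 TPM in each library of CT26 and CT26NYESO1, lower there at -2.43 ± 0.18 (SE, adjusted p = 1.4e-11) and -2.3 ± 0.18 (SE, adjusted p = 5.2e-11), and at or below 0.173 TPM in B16F10.

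**Figure D3:**
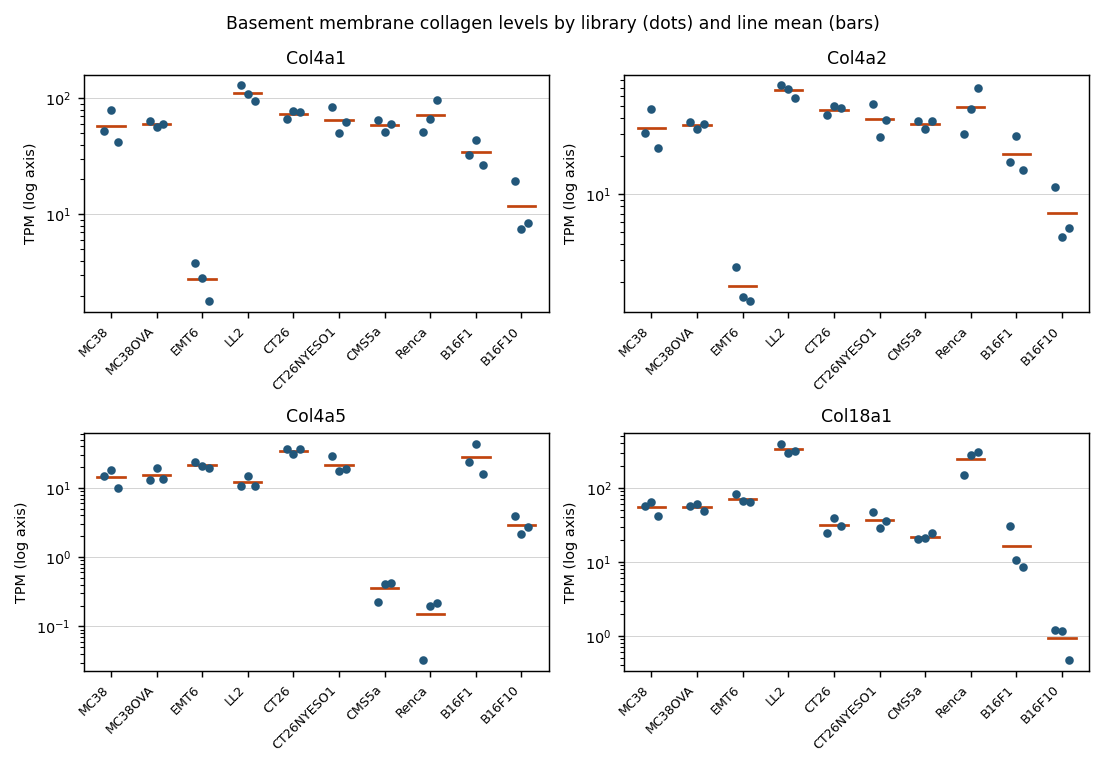
Levels of Col4a1, Col4a2, Col4a5 and Col18a1 in TPM (vertical log axis) by line, with 1 dot per library and a bar at the line mean. Col4a1 and Col4a2 share 1 profile with EMT6 lowest, at 1.79 to 3.79 TPM for Col4a1, while Col4a5 is under 1 TPM in CMS5a and Renca.

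The 7 cartilage members rose together in B16F1: 7 of 7 were higher there than in the other 9 lines, against 8.52% of all genes tested. For Col2a1, Col9a1 and Col9a2 that direction was set by the filter, which they passed through the B16F1 libraries alone, so nothing is read from their count. They comprise Col2a1, the main fibre of cartilage, the 3 type IX chains that decorate that fibre, Col10a1 of cartilage about to calcify, and the 2 type XI chains, Col11a1 and Col11a2. Promoter windows of 150 bases before the RefSeq start (GRCm38.p6) are shown for those of the cartilage members, Col20a1 and Col28a1 whose window is in the RefSeq table and touches no annotated exon, since these genes were high together in B16F1. Capitals mark 5 motifs searched on both strands, none of which overlapped another: the CCAAT box, the TATA-type run TATAAA, the GC box GGGCGG, and a pair of short runs that SOX proteins can bind, AACAAT and, in a second form, ACAAAG. A motif on the other strand stands as its complement.
Col9a1 (chr1:24177460-24177609, plus strand): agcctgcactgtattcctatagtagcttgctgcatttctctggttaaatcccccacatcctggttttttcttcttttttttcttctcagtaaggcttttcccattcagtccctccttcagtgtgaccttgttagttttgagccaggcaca
Col10a1 (chr10:34389831-34389980, plus strand): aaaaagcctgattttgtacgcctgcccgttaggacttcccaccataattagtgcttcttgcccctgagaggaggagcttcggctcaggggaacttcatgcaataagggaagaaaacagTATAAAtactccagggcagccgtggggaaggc
Col11a1 (chr3:114030390-114030539, plus strand): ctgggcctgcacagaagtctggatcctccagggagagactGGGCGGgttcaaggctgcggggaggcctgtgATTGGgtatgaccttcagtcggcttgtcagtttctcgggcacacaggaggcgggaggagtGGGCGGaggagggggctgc
Col11a2 (chr17:34038988-34039137, plus strand): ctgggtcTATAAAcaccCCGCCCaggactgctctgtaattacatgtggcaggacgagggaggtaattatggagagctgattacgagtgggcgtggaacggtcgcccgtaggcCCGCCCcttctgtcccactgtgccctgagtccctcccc
Col28a1 (chr6:8192618-8192767, minus strand): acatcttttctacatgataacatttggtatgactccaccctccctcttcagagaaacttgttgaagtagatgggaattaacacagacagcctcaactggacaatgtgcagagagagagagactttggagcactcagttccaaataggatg
No motif was found in all 5 windows. TATAAA began 32 bases before the start in Col10a1 and 143 bases before it in Col11a2, and the windows shown for Col9a1 and Col28a1 held none of the motifs. Col9a1 had 2 entries in the RefSeq table, of which only the first is shown. GGGCGG was in the windows of both type XI chains, as it was in 28.6% of the 32851 promoters of the table. Of the 38 windows listed for 35 members, 19 held GGGCGG, 8 CCAAT (24.5% of all promoters), 4 TATAAA (7.57%) and none AACAAT (5.31%) or ACAAAG (9.88%).

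Col2a1 held 319.6, 632 and 308 TPM in the B16F1 libraries and at most 0.823 TPM in the 27 others. Each B16F1 library was thus above every library of the other lines. The 3 libraries of the other lines held, for Col2a1, 0.823, 0.171 and 0.0985 TPM in B16F10, 0.3895, 0.356 and 0.157 TPM in MC38, 0.233, 0.256 and 0.168 TPM in MC38OVA and 0.08597, 0.224 and 0.0722 TPM in LL2. CMS5a held 0.0791, 0.0758 and 0.0732 TPM and Renca 0.0244, 0.03698 and 0.0128 TPM. EMT6 (0, 0 and 0.0663 TPM), CT26 (0.0139, 0.0311 and 0 TPM) and CT26NYESO1 (0.03699, 0 and 0 TPM) were at or near 0. The rise in B16F1 was 8.47 ± 0.14 (SE). Col2a1 was tested through these B16F1 libraries alone, so no p-value is given.

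Col9a1 held 49.3, 358 and 84.9 TPM in B16F1, 0.832, 0.813 and 0.194 TPM in B16F10, 0.0438, 0.128 and 0.0945 TPM in MC38 and 0.0573, 0.0462 and 0.0804 TPM in MC38OVA. LL2 (0, 0 and 0.0327 TPM), CMS5a (0, 0.0229 and 0 TPM) and Renca (0, 0 and 0.0369 TPM) had it in 1 library each, and it was listed at 0 in all 9 libraries of EMT6, CT26 and CT26NYESO1. Col9a2 held 28.5, 85.1 and 45.9 TPM in B16F1 and no more than 0.7 TPM elsewhere. Col9a3 was the most even of the 3 type IX chains in B16F1, with 126, 91.7 and 121 TPM. Unlike the other type IX chains, Col9a3 was found at low level in every library, with 1.45, 2.34 and 3.57 TPM in MC38OVA, 2.999, 2.15 and 1.85 TPM in MC38, 1.31, 1.702 and 1.79 TPM in CMS5a and 0.546, 1.98 and 0.861 TPM in EMT6. B16F10 held 1.89, 0.872 and 0.474 TPM, CT26NYESO1 0.694, 0.8798 and 1.11 TPM, LL2 0.6197, 0.863 and 1.11 TPM, CT26 0.885, 0.388 and 0.683 TPM and Renca 0.1199, 0.411 and 0.275 TPM. The rises in B16F1 were 6.75 ± 0.26 (SE) for Col9a1, 5.45 ± 0.16 (SE) for Col9a2 and 5.74 ± 0.19 (SE, adjusted p = 1.8e-19) for Col9a3. No p-value is given for Col9a1 and Col9a2, which were tested through the B16F1 libraries alone.

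The type XI chains held 21.5, 148 and 23.9 TPM (Col11a1) and 31.1, 182 and 40.3 TPM (Col11a2) in B16F1. Col11a1 was also found in MC38 (3.38, 4.41 and 2.28 TPM) and MC38OVA (3.19, 5.66 and 3.48 TPM), and Col11a2 between 0.134 and 1.86 TPM in all libraries outside B16F1. Col10a1 had a different profile, with 1.56, 21.7 and 9.55 TPM in CT26 and 2.496, 9.92 and 3.76 TPM in B16F1, and made up 88.2% of the cartilage sum in CT26. It was higher in CT26 by 2.44 ± 0.32 (SE, adjusted p = 4.2e-07), though replicate 1 of CT26 lay just above the level of EMT6 (1.07, 1.22 and 0.973 TPM). Col10a1 shares 18 exonic bases with Nt5dc1 on the other strand (8.37 to 22.1 TPM), and Col9a3 shares 234 with Tcfl5 (at most 0.248 TPM), and no source used here gives the strand setting of the counting. The falls of Col2a1 in CMS5a and Renca (-1.0 ± 0.14 and -1.08 ± 0.14) and of Col9a3 (-1.46 ± 0.19) and Col11a2 (-1.06 ± 0.26) in Renca, and of Col11a1 in LL2 and CT26 (-1.29 ± 0.30 and -1.16 ± 0.30), were taken against other lines that included B16F1. Without both B16 lines in that mean none of these 6 reached 1 log2 unit (-0.03 and -0.11, -0.86 and -0.54, and -0.87 and -0.74 in that order). Col11a2 in Renca was also -0.96, under the threshold, without replicate 1 of Renca.

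Beside the cartilage class, Col20a1, a fibril-associated member, held 18.1, 109 and 16.5 TPM in B16F1 and at most 1.26 TPM elsewhere, and Col28a1, known from peripheral nerve, 5.63, 79.97 and 15.9 TPM and at most 3.01 TPM. Replicate 2 of B16F1 stood above the other 2 libraries for 6 of 7 cartilage members, and for 24 of the 29 members at 1 TPM or more in all 3 libraries, with a median ratio of 2.15 to the mean of the others. It also held the largest mitochondrial share (39% against 12.1% and 18.6%), the least of the melanocyte gene Dct (967 TPM against 4505 and 3476) and the most Ptprc (17.3 TPM against 6.06 and 6.92), and the part of these in the result was not tested. Without that library the rise of Col2a1 was 8.14 and that of Col9a1 was 5.94.

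Markers of cartilage cells other than collagens were taken as a list of 7 genes. Acan and Sox9 were at or below 0.165 and 0.0911 TPM in all B16F1 libraries. Of the other 5 markers on that list, Hapln1 held 6.101, 102 and 16.8 TPM, Cnmd 2.18, 68.7 and 17.7 TPM, Matn3 5.003, 1.502 and 2.82 TPM, Comp 1.79, 1.78 and 2.52 TPM and Matn1 0.452, 4.901 and 0.216 TPM. The sum of the 7 was 15.6 to 179 TPM in B16F1, against 24.3 TPM in the highest library outside it, in MC38. 2 of the 3 B16F1 libraries exceeded every library of the other lines for that sum, and replicate 1, with 319.6 TPM of Col2a1, did not. The part of these markers in the result was not tested.

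**Figure D4:**
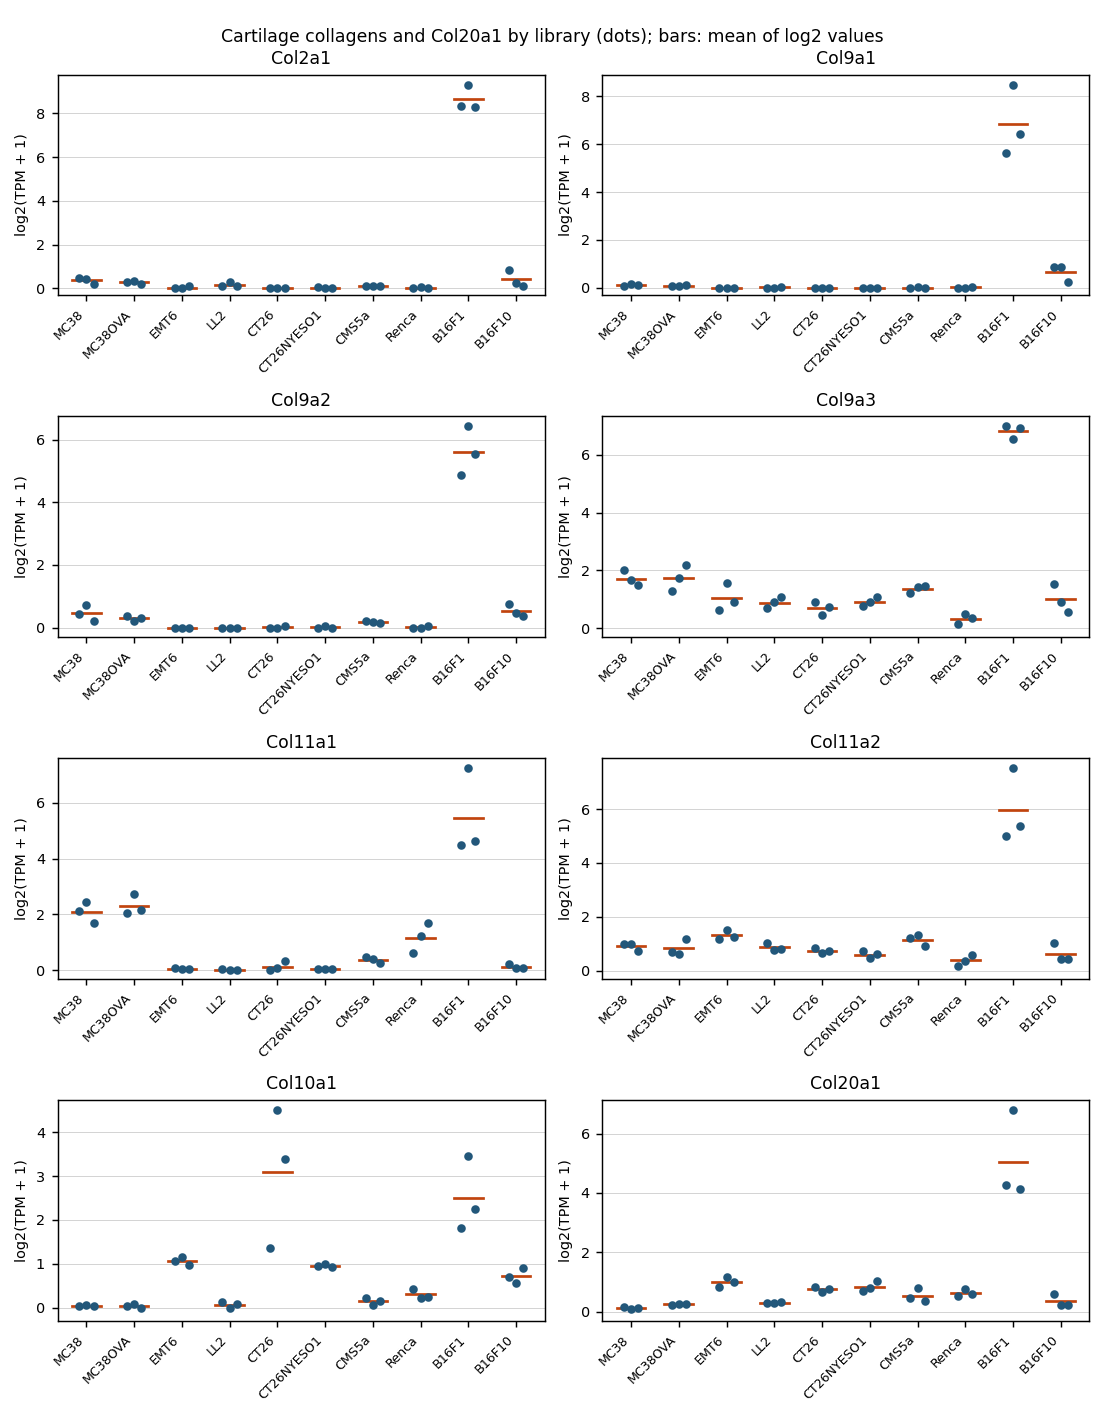
Levels of the 7 cartilage collagens and of Col20a1 as log2(TPM + 1) by line, with 1 dot per library in the order of replicates 1 to 3 and a bar at the mean of the log2 values. B16F1 is above all other lines except for Col10a1, which is highest in CT26, and replicate 2 is its highest library in each panel but that of Col9a3.

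Type VI collagen is assembled from Col6a1, Col6a2 and a further chain, in most tissues Col6a3. Col6a1 was above 190 TPM in 5 lines: CMS5a (322, 424 and 316 TPM), EMT6 (381, 273 and 257 TPM), MC38 (293, 408 and 204 TPM), MC38OVA (233, 329.7 and 305 TPM) and LL2 (349, 196 and 198 TPM). Renca held 60.1, 110.2 and 112 TPM, CT26 56.8, 74.2 and 64.7 TPM, CT26NYESO1 91.9, 41.2 and 55.2 TPM and B16F1 12.6, 71.7 and 17.5 TPM. B16F10 held 0.717, 0.323 and 1.12 TPM. The 5 high lines each overlapped with the next and none overlapped with the other 5.

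Col6a2 was high in the same 5 lines. CMS5a held 237, 327 and 259 TPM, EMT6 296, 167 and 158 TPM, MC38 195, 283 and 141 TPM, MC38OVA 148, 202 and 229.8 TPM and LL2 215, 134 and 128 TPM. Renca held 42.8, 67.1 and 80.7 TPM, CT26 8.15, 18.9 and 16.1 TPM, B16F1 7.39, 12.6 and 3.81 TPM, CT26NYESO1 11.4, 4.59 and 5.43 TPM and B16F10 0.875, 0.276 and 1.05 TPM. It was higher by 2.9 ± 0.28 (SE, adjusted p = 1.7e-09) in CMS5a and lower in CT26NYESO1, at -2.83 ± 0.28 (SE, adjusted p = 3.5e-09).

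Col6a3 departed from both. LL2 held 214, 207 and 168 TPM, MC38 156, 219 and 104 TPM and MC38OVA 119, 117 and 128 TPM, while Renca held 22.9, 29.6 and 37.8 TPM. CT26 (12.7, 12.02 and 13.5 TPM), CMS5a (5.16, 9.51 and 10.8 TPM) and B16F1 (5.798, 13.8 and 3.93 TPM) followed. CT26NYESO1 held 2.17, 1.07 and 1.91 TPM, EMT6 0.612, 0.897 and 0.412 TPM and B16F10 0.496, 0.181 and 0.365 TPM. Thus EMT6 and CMS5a, both rich in Col6a1 and Col6a2, had little Col6a3. It was higher by 4.1 ± 0.23 (SE, adjusted p = 3.4e-14) in LL2, 3.71 ± 0.23 (SE, adjusted p = 3.6e-13) in MC38 and 3.34 ± 0.23 (SE, adjusted p = 3.5e-12) in MC38OVA, and lower in EMT6, at -3.58 ± 0.23 (SE, adjusted p = 4.5e-13). Col6a4, Col6a5 and Col6a6, the chains that can take its place, stayed under 1 TPM in all 30 libraries.

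Col16a1, a fibril-associated collagen, was at 1 TPM or more in all 30 libraries. Its libraries held 169.9, 167 and 178 TPM in EMT6, 116, 156 and 147 TPM in CMS5a, 154, 110.3 and 119.9 TPM in CT26NYESO1 and 118, 97.7 and 96.2 TPM in CT26. LL2 held 101, 93.5 and 83.3 TPM, MC38OVA 90.2, 95.8 and 88.6 TPM, MC38 90.1, 107 and 73.4 TPM, B16F1 85.5, 80.01 and 75.6 TPM and Renca 87.6, 71.04 and 75.3 TPM. B16F10 was lower with 19, 12.8 and 17.3 TPM, and there Col16a1 alone made up 83.9% of the class. From CMS5a down to Renca each line overlapped with the next.

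Col8a1, a short-chain collagen of vessel walls, was high in CT26 (114, 85.5 and 88.7 TPM), CT26NYESO1 (67.7, 67.6 and 75.3 TPM) and EMT6 (59.3, 70.2 and 80.2 TPM). CMS5a held 29.9, 36.1 and 25.1 TPM, LL2 27.8, 21.3 and 19.8 TPM, Renca 6.21, 10.3 and 13.7 TPM and B16F1 5.55, 9.98 and 3.26 TPM. It was low in MC38 (3.996, 3.05 and 3.97 TPM), MC38OVA (4.16, 2.08 and 3.61 TPM) and B16F10 (0.214, 0.181 and 0.265 TPM). Col8a1 and Col6a3 thus ran in opposite directions between the colon lines: Col8a1 rose by 2.97 ± 0.20 (SE, adjusted p = 2e-12) in CT26 and fell in MC38, at -1.88 ± 0.20 (SE, adjusted p = 1.8e-08). Col12a1, which binds the surface of type I fibres, was high in EMT6 (124, 99.1 and 87.03 TPM) and Renca (42.2, 70.6 and 72.5 TPM), with at most 5.88 TPM in the other 24 libraries. It rose by 4.83 ± 0.25 (SE, adjusted p = 5.4e-15) and 3.99 ± 0.25 (SE, adjusted p = 1.4e-13) and fell in CMS5a, at -1.56 ± 0.25 (SE, adjusted p = 9.3e-06). That fall was taken against other lines that included EMT6 and Renca. The CMS5a libraries (0.611, 1.08 and 1.09 TPM) overlapped with those of CT26NYESO1 (2.28, 0.807 and 1.39 TPM). They were above those of B16F10 (0.425, 0.325 and 0.239 TPM). Of the minor members, Col23a1 peaked in LL2 at 3.602 ± 1.07 TPM, Col13a1 and Col8a2 in Renca at 3.35 ± 0.338 and 2.89 ± 0.762 TPM, and Col14a1 in EMT6 at 14.1 ± 3.53 TPM.

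Since TPM is per length, the ratio of chains that share a trimer could be read within each library. Col4a1 over Col4a2 was 1.5 to 1.74 in the line means of all 10 lines, and 1.27 to 1.85 over the 30 libraries. These genes lie head to head on chromosome 8 (mm10, GENCODE M21), Col4a1 at 11198423 to 11312826 on the minus strand and Col4a2 at 11312805 to 11449287 on the plus strand, and share 22 exonic bases. Across the 10 lines the correlation of their log2 levels was 0.998, given as a description over lines that share libraries for both genes. Col1a1 over Col1a2 fell into separate ranges. It was 0.0849 ± 0.0127 in CT26NYESO1, 0.114 ± 0.0162 in CT26, 0.207 ± 0.0464 in EMT6 and 0.216 ± 0.0495 in CMS5a. In the other 6 lines it was 0.842 ± 0.122 in B16F10, 1.01 ± 0.0642 in Renca, 1.05 ± 0.109 in B16F1, 1.18 ± 0.106 in MC38OVA, 1.38 ± 0.545 in MC38 and 1.55 ± 0.395 in LL2 (SD, n = 3 for each). The type I trimer has 2 Col1a1 chains for each Col1a2, and no line mean reached that ratio.

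Col6a1 over Col6a2 was 1.29 to 1.55 in 6 lines and higher in CT26 (4.97 ± 1.73), CT26NYESO1 (9.07 ± 1.06) and B16F1 (4.004 ± 2.07), in B16F1 with 1 library at 1.70 and the others at 5.71 and 4.60. Col6a3 over Col6a1 was 0.838 ± 0.221 in LL2, 0.526 ± 0.0147 in MC38 and 0.428 ± 0.0781 in MC38OVA. It was 0.0281 ± 0.00578 in CT26NYESO1 and 0.0242 ± 0.00921 in CMS5a. Col5a1 over Col5a2 went from 0.297 ± 0.0701 in CMS5a to 22.5 ± 2.25 in EMT6. Col3a1 over Col1a1, 2 separate collagens of the same fibres, went from 0.906 ± 0.0766 in Renca to 48.6 ± 22.3 in LL2. Col4a5 over Col4a6 could be given in MC38 (4.42 ± 0.861) and MC38OVA (4.46 ± 0.8602), and Col11a1 over Col11a2 in B16F1 (0.7002 ± 0.11). Col3a1 and Col5a2 are neighbours on chromosome 1, tail to tail and 24614 bases apart, and both were highest in CMS5a, while LL2, next for Col3a1, held 9.96, 19.5 and 6.83 TPM of Col5a2.

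**Figure D5:**
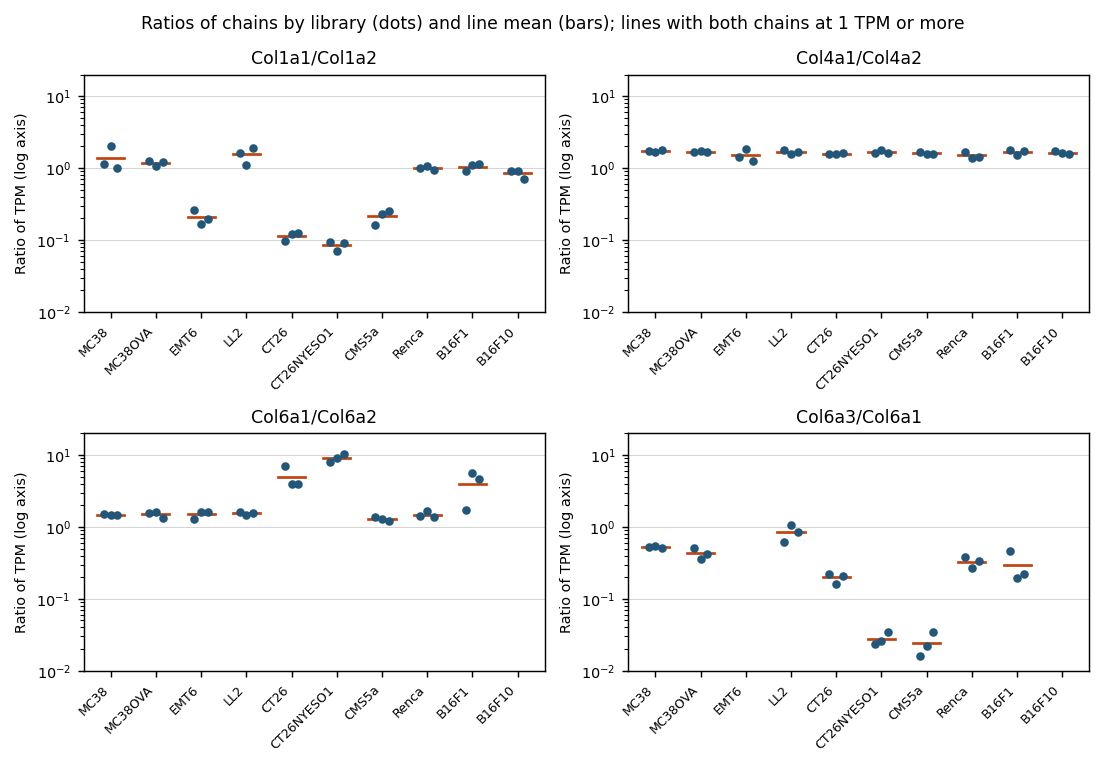
Ratios of chain levels in TPM (vertical log axis, the same range in each panel) by line, with 1 dot per library and a bar at the line mean, for lines with both chains at 1 TPM or more in all 3 libraries. Col4a1 over Col4a2 is flat at 1.5 to 1.74, while the other ratios differ between lines, Col1a1 over Col1a2 with 4 lines at or under 0.216.

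Line by line, the tested members split as follows against the mean of the other 9 lines. MC38 had 9 of 34 higher and 3 lower, where 8.24% and 4.06% of all tested genes were so called. Its leading rises were Col6a3, Col5a3, Col6a2 (2.4 ± 0.28) and Col6a1 (1.89 ± 0.31), and its falls Col1a2, Col8a1 and Col15a1 (-1.03 ± 0.25). MC38OVA had 9 higher (10.2% of all genes) and 2 lower (3.59%), with Col6a2 at 2.33 ± 0.28, Col6a1 at 1.86 ± 0.31 and Col8a1 at -2.05 ± 0.20. Without both B16 lines among the others, Col6a1 in MC38 and MC38OVA was at 0.87 and 0.84, no longer past the threshold. EMT6 had 12 higher (10.2%) and 7 lower (4.7%), with Col8a1 at 2.47 ± 0.20 and Col6a2 at 2.4 ± 0.28. The 6 markers of pericytes and smooth muscle summed to 278.3 to 410.8 TPM in EMT6 and at most 91.4 TPM elsewhere, and their part in these counts was not tested. LL2 had 12 higher (7.98%) and 2 lower (6.53%), with Col6a2 at 2.0 ± 0.28. CT26 had 4 higher (8.25%) and 6 lower (4.91%), with Col6a2 at -1.79 ± 0.28. CT26NYESO1 had 3 higher (6.84%) and 9 lower (5.71%), with Col8a1 at 2.49 ± 0.20, Col4a5 at 1.3 ± 0.20 and Col6a3 at -2.78 ± 0.23. CMS5a had 11 higher (9.23%) and 3 lower (4.49%), with 6 of 7 fibrillar members among the rises. Renca had 9 higher (12.4%) and 4 lower (10.5%). These counts include members that passed the filter only through the line where they are high. They also depend on the B16 lines among the others. Without both B16 lines there, EMT6 kept 13 of 19 calls, LL2 9 of 14, CMS5a 11 of 14 and Renca 9 of 13. MC38 kept 10 of 12, MC38OVA 9 of 11, CT26 7 of 10 and CT26NYESO1 9 of 12. Calls gained were 5 each in MC38, CT26 and Renca, 4 each in MC38OVA and CT26NYESO1, 2 in CMS5a, 1 in LL2 and 0 in EMT6.

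B16F1 had 11 higher (8.52%) and 10 lower (13.2%). The rises were the 7 cartilage members, Col20a1, Col28a1, Col27a1 and Col4a5, and the leading falls Col6a2 (-2.72 ± 0.28), Col3a1 (-2.38 ± 0.32), Col1a2 (-2.38 ± 0.33) and Col6a1 (-1.97 ± 0.31). Among the rises, Col2a1, Col9a1, Col9a2 and Col20a1 would have failed the filter without the B16F1 libraries, which favoured that direction. Without replicate 3 of B16F1 the count was 13 in all. With the same 17944 genes kept it was 16, the losses being the falls of Col1a1, Col5a2, Col5a3, Col6a3 and Col8a1, while each cartilage member remained higher. B16F10 had 1 higher (5.28%) and 19 lower (23.2%), with a median of -1.72 for the 34 members and -0.48 for all genes. Its leading falls were Col6a1 (-6.37 ± 0.31), Col3a1 (-6.23 ± 0.32), Col1a2 (-5.5 ± 0.33) and Col6a2 (-5.24 ± 0.28). Median-ratio scaling of the libraries moved the median of all genes by 0.50 in B16F10, and the share of its called genes that were higher from 18.6% to 41.3%, while all 20 member calls were kept. It moved that median by 0.15 in B16F1, by -0.14 in MC38, EMT6 and CMS5a and by -0.11 in CT26NYESO1.

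Between related lines, MC38OVA and MC38 differed in none of the 34 tested members by limma, with 1.31% of all genes called in either direction. 2 of 34 members had an unadjusted p under 0.05, as did 2010 of 17944 genes. These were Col13a1 (0.53 ± 0.12, with 0.793, 0.423 and 0.932 TPM in MC38OVA against 0.08298, 0.102 and 0.386 TPM in MC38), whose adjusted p of 0.024 passed while its change was under 1 log2 unit, and Col15a1 (0.98 ± 0.34), each higher in MC38OVA, where all 3 libraries of Col15a1 (3.39, 3.39 and 5.03 TPM) were above those of MC38 (1.45, 1.56 and 1.41 TPM). CT26NYESO1 had 2 members lower than CT26 (1.89% of all genes lower) and none higher. Col6a3 fell from 12.7, 12.02 and 13.5 to 2.17, 1.07 and 1.91 TPM, a difference of -2.36 ± 0.30 (SE, adjusted p = 5.2e-06), with no overlap. Col10a1 fell from 1.56, 21.7 and 9.55 to 0.9203, 0.999 and 0.908 TPM, a difference of -2.13 ± 0.42 (SE, adjusted p = 0.0018), also without overlap, but its adjusted p was 0.071 in a fit of the 6 libraries alone. Without replicate 2 of CT26 the Col10a1 difference was -1.42, and without replicate 1 of CT26 it was -2.99. Of 6 bone cell markers, Runx2 was 24.2 ± 6.66 and 15.2 ± 2.65 TPM in CT26 and CT26NYESO1 and Dmp1 29.1 ± 4.86 and 6.6 ± 3.03 TPM, while Ibsp and Sp7 were at or below 0.0427 TPM in both. The fibroblast marker sum was 544.9 to 734.9 TPM in CT26 and 216.7 to 312 TPM in CT26NYESO1, and its part in the result was not tested.

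The signed change from parent to antigen line was more positive in the MC38 pair than in the CT26 pair for 2 members (2.22% of all genes), by an interaction over the 4 lines. The changes were -0.33 ± 0.30 in the MC38 pair and -2.36 ± 0.30 in the CT26 pair for Col6a3, and for Col10a1 the MC38 lines held at most 0.0594 TPM. The difference was, for Col6a3, 2.03 ± 0.43 (SE, adjusted p = 0.0059), and for Col10a1 2.12 ± 0.60 (SE, adjusted p = 0.047). Both use the same libraries as the falls in CT26NYESO1 just given. The call of Col10a1 did not hold under most alternatives, with adjusted p up to 0.13.

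B16F10 against B16F1 had 1 member higher (4.53% of all genes) and 29 lower (16.4%), among them 7 of the 7 tested fibrillar and 7 of 7 cartilage members. Col2a1, Col9a1 and Col9a2 were tested through their B16F1 libraries alone, which set the direction of their change. Col20a1, also among the falls, would have failed the filter without its B16F1 libraries, which favoured that direction. The largest falls were those of Col2a1 (-8.22 ± 0.19), Col9a1 (-6.19 ± 0.35), Col9a3 (-5.82 ± 0.25), Col11a2 (-5.33 ± 0.35) and Col11a1 (-5.31 ± 0.40). Col4a4 was higher by 1.76 ± 0.17 (SE), and it would not have passed the filter without its B16F10 libraries. Median-ratio scaling moved the median of all genes in this pair by 0.33 and the higher share of called genes from 21.7% to 41.7%, while all 30 member calls were kept. The fibroblast marker sum was 110.9 to 149.4 TPM in B16F1 and 47.1 to 82.2 TPM in B16F10, and its part in the result was not tested.

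Genes that make, bind or break down collagen were taken as 3 lists. Of 34 genes of synthesis and processing, 31 were tested and 30 differed between lines, as did 85.5% of all genes. Of the 31, 13 were higher and 0 lower in EMT6 (10.2% and 4.7% of all genes), and 11 higher and 5 lower in CMS5a (9.23% and 4.49%). In B16F1 3 were higher and 9 lower (8.52% and 13.2%), and in B16F10 1 higher and 13 lower (5.28% and 23.2%). The counts were 8 higher and 5 lower in Renca (12.4% and 10.5%), 7 and 2 in LL2 (7.98% and 6.53%), 6 and 2 in MC38 (8.24% and 4.06%), and 5 and 2 in MC38OVA (10.2% and 3.59%). They were 3 and 6 in CT26 (8.25% and 4.91%) and 4 and 7 in CT26NYESO1 (6.84% and 5.71%). P3h4, which is needed to modify lysines in the helix, was 72.6 ± 7.97 TPM in CMS5a and 50.7 ± 4.98 TPM in EMT6, but 2.75 ± 0.746 TPM in Renca, 0.4397 ± 0.138 TPM in B16F1 and 0.0609 ± 0.0444 TPM in B16F10. Plod2, a lysine hydroxylase that sets the kind of crosslink, was 287 ± 92.1 TPM in LL2 and 1.27 ± 0.671 TPM in Renca, with the other 8 lines between 36.2 and 163 TPM. The crosslinking enzyme Lox was 166 ± 47.6 TPM in CMS5a, 82.5 ± 31.98 TPM in Renca and 64.6 ± 2.602 TPM in EMT6, with at most 8.27 TPM in the other lines. Its relative Loxl1 was also highest in CMS5a, at 90.7 ± 8.51 TPM. LL2, the next line after CMS5a by collagen sum, thus had little Lox and the most Plod2.

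Of 10 collagen receptors, 8 were tested and 8 differed between lines, against 85.5% of all genes. Mrc2, which takes up collagen fragments, was 194 ± 36.8 TPM in CMS5a and at most 33.6 TPM in the other lines. Lair1, an inhibitory receptor of leukocytes, was highest in LL2 (31.2 ± 3.04 TPM) and MC38OVA (30.9 ± 13.8 TPM). The kinase receptor Ddr1 was highest in Renca (71.4 ± 21.1 TPM) and B16F1 (61.4 ± 11.6 TPM), and the integrin chain Itgb1 in EMT6 (601 ± 9.13 TPM). Of 10 genes of breakdown, 10 were tested and 9 differed between lines, close to the 85.5% of all genes. Mmp2 was 611 ± 53.3 TPM in CMS5a and 9.26 ± 5.999 TPM in LL2, while Mmp3 was 625 ± 140.4 TPM in LL2 and 1.14 ± 0.129 TPM in CMS5a, so the 2 lines with most Col3a1 differed in these proteases. The collagen-cleaving cathepsin Ctsk was highest in Renca (156 ± 17.6 TPM), and Mmp9 in EMT6 (45.6 ± 42.9 TPM), with an SD near its mean. Mmp3 was also 136 ± 71.4 TPM in CT26 and 7.02 ± 3.14 TPM in CT26NYESO1.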

How the data were processed

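The authors deposited one table of TPM for 55291 gene symbols in 30 libraries, which keeps no read depth. Per the submitters' processing notes, Trim Galore 0.6.5, STAR 2.7.3a, StringTie 2.1.2 and the mouse build mm10 were used. Per the labels' protocols the libraries came from a stranded mRNA kit. The gene annotation and the strand setting are not given in the sources used here.

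Genes with at least 1 TPM in at least 3 libraries (17944) were fitted as log2(TPM + 1) with limma 3.58.1 in R 4.3.3, with a mean-variance trend, 10 line means and 20 residual degrees of freedom. Each line was compared with the mean of the other 9, related lines with each other, and both antigen pairs in one interaction. Calls needed a p-value below 0.05 after Benjamini-Hochberg adjustment over all genes tested and a change of at least 1 log2 unit. Adjusted p-values in the text are those of limma, and each ± beside a fold change is its standard error. The fits were tested on simulated data.

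Members and gene lists were chosen with earlier results of these data known. Named were a fixed set of 16 members with a value in every library, up to 4 rises and 4 falls per line, up to 5 of each per pair, fixed chain ratios, and up to 4 genes with the widest range per pathway list. Minor members given at their highest line were chosen after their values were seen. Alternatives were median-ratio scaling, removal of mitochondrial transcripts, a pseudocount of 0.1, all genes kept, calls by adjusted p alone, a replicate block, other comparison lines, a fit of 6 libraries, and leaving out each library in turn. Leaving out a library while keeping the genes of the whole set was added after seeing the data. Promoter windows came from the RefSeq table of GRCm38.p6, which matched 35 of 44 members by symbol. Exon overlaps and gene positions came from GENCODE M21 (mm10).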

Additional observations from a re-analysis of the deposited data

Results flagged for a closer look

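The change from the parent line to its antigen line differed between the MC38 and CT26 backgrounds for Col6a3 and Col10a1, by an interaction term in limma over the 4 lines. For Col6a3 the difference was 2.03 log2 units, adjusted p = 0.0059. All 3 libraries of CT26NYESO1 (2.17, 1.07 and 1.91 TPM) lay below all 3 of CT26 (12.7, 12.02 and 13.5 TPM), while MC38OVA (119, 117 and 128 TPM) and MC38 (156, 219 and 104 TPM) overlapped. For Col10a1 the difference was 2.12 log2 units, adjusted p = 0.047, with 1.56, 21.7 and 9.55 TPM in CT26, 0.9203, 0.999 and 0.908 TPM in CT26NYESO1 and at most 0.0594 TPM in any library of MC38 or MC38OVA. The call of Col10a1 was lost under 15 of 18 alternatives, with adjusted p of 0.057 to 0.13 where it was lost.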

How the results depend on the processing

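Of 919 values of named members under an alternative, 893 kept their call, 26 lost it and none reversed. These losses fell on 10 of the 80 named pairs of a member and a comparison, each given in the report. Not among the 919 are members that failed the filter once a B16F1 library was left out, and so lost their call. These were Col2a1, Col9a1 and Col9a2 in B16F1, and Col2a1 and Col9a1 in the B16 pair. Their calls held where the genes of the whole set were kept. Of 183 counts of called members, 153 stayed within 1.5 times the main count. With no fold threshold the counts were 23 in MC38, 23 in MC38OVA, 30 in EMT6, 26 in LL2, 22 in CT26, 23 in CT26NYESO1, 27 in CMS5a, 23 in Renca, 31 in B16F10 and 1 in MC38OVA against MC38. With a pseudocount of 0.1 they were 22 in LL2, 17 in CT26 and 21 in Renca. The CT26 pair had 1 call in a fit of its 6 libraries. The difference of antigen pairs had 1 call under median-ratio scaling, with mitochondrial transcripts removed, with a pseudocount of 0.1 and with no filter. Leaving out 1 library gave 13 to 20 calls in B16F1 and 1 to 3 in the difference of antigen pairs. With the genes of the whole set kept, B16F1 had 16 to 23, Renca 13 to 15 and the B16 pair 29 to 30. Part of the B16F1 drop comes from the filter, which Col2a1, Col9a1 and Col9a2 do not pass with 2 B16F1 libraries left. The cause of the other changes was not tested. The replicate block moved none of 214 calls. For a check of pairing, each library was taken as its deviation from its line mean. Such deviations of same-numbered libraries of different lines correlated at a mean of 0.0043 (-0.47 to 0.421), and of different-numbered ones at -0.00213 (-0.5 to 0.53). Taking out the line means ties these means to each other, so they are not separate measures. These means over all genes tested showed no pairing by number. A batch shared by only some lines or genes was not tested. None of 37 chain ratios moved by 1 SD as a ratio of sums. TPM hides depth, so the error of members near 1 TPM is unknown.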
